A study of Homo sapiens with 2 samples.

Results

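Suppressyn, the product of the gene ERVH48-1, was followed together with the repeat rows of its endogenous retrovirus in single cells of H9, a human embryonic stem cell line. The members are 3 rows chosen by name with earlier results of these data in view: ERVH48-1, 1 of 22474 rows of the gene tables, and HERVH48-int and MER48, 2 of 5833 rows of the repeat tables. Their difference between the states was part of why they were chosen, so it is given as a description. The ESC group was H9 embryonic stem cells (1 sample, 16 cells), and the ffEPSC group was feeder-free extended pluripotent stem cells converted from H9 (1 sample, 25 cells). Both groups come from 1 cell line, carry no stated genetic change, and were profiled with Smart-seq2, which copies and amplifies polyadenylated RNA from a single cell without molecular barcodes. The ESC library held 265412149 gene counts and 129041480 repeat counts, and the ffEPSC library 374101290 and 179248893. Cells are called by the set and well in their column names. With 1 sample per state there is no test between states, cells are not replicates, and intervals cover counting error alone.

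Human endogenous retroviruses are remnants of ancient germline infections, and an intact copy, a provirus, has an internal part between a pair of long terminal repeats (LTRs) that hold its promoter and its polyadenylation signal. HERVH48-int names the internal part of the HERVH48 family and MER48 the LTR that flanks it, each a row that gathers reads of many copies. ERVH48-1 is a copy on chromosome 21 whose shortened envelope protein, suppressyn, is secreted by placental trophoblast, binds the amino acid transporter ASCT2 and hinders cell fusion driven by syncytin-1, which uses the same receptor.

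ERVH48-1 (ENSG00000233056.2) lies on the minus strand of chromosome 21, from 42916803 to 42925646 on GRCh38. GENCODE 29 types it as a long intergenic non-coding RNA gene, while RefSeq types it as protein coding. The GENCODE transcript has 2 exons, of 301 and 2489 bases, around an intron of 6054 bases. The first 82 and the last 82 bases of this transcript of 2790 bases match at 74 positions (90.2%), with no gap, and a retroviral RNA is known to carry such a repeated stretch at both ends. Its longest reading frame that opens with ATG has 160 codons before the stop, all within exon 2. The first 300 bases of that frame are shown, since the frame is the part that encodes suppressyn. They lie at chr21:42918707-42919006 on GRCh38 and read 5′ to 3′ on the minus strand, with the start codon in capitals.
ERVH48-1 reading frame: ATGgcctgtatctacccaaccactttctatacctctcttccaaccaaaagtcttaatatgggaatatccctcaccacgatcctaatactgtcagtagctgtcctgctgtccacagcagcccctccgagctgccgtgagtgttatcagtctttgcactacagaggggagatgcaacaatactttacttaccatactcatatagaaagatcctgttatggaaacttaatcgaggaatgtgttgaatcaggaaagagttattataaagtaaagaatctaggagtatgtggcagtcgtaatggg

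ERVH48-1 was low and uneven in ESCs and high in nearly all ffEPSCs. In ESCs it was at 0 CPM in the lowest cell, 0.512 CPM in the median cell and 71.5 CPM in the highest, where CPM is the count divided by all gene counts of the cell and scaled to 1000000. In ffEPSCs the lowest cell was at 1.75 CPM, the next at 81.7 CPM, the median cell at 466 CPM and the highest at 919.7 CPM. Of the 25 ffEPSC cells 24 lay above every ESC cell, and the 1 exception, well G5 of set 4, lay within the ESC range. Over all genes with 5 CPM in a library, 0.222% had at least 24 ffEPSC cells above every ESC cell. Summed over cells the level was 9.18 CPM in ESCs (95% exact Poisson interval 8.82 to 9.55) and 441 CPM in ffEPSCs (439 to 443), a fold of 48.1 (46.2 to 50.1). The log2 ratio after adding 1 CPM was 5.44, which ranked 8 among 10825 genes, of which 8.3% were at least 2-fold higher in ffEPSCs.

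Most of the ESC signal came from a few cells. The cell in well C2 of set 1 held 50.5% of all ERVH48-1 counts of the ESC library. Cells with 5 CPM or more numbered 6 of 16, and 9 cells lay below 1 CPM, at 0 to 0.545 CPM. In those 9 cells the reads were few, and 2 of the cells had none, which allows up to 0.154 and 0.158 CPM. For comparison, DNMT3L, a gene at 261 CPM in ffEPSCs, was at 0 to 1.101 CPM in ESC cells, so values this low were not read as expression. Without the C2 cell the log2 ratio was 6.24, and the log2 ratio of median cells was 8.27.

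HERVH48-int followed the same order. In repeat CPM, which is scaled in the same way to all repeat counts of the cell, ESC cells had 0 at the lowest, 12.5 at the median and 115 at the highest. The 1 cell at 0, well C6 of set 3, could hold up to 0.271 repeat CPM. In ffEPSC cells the values were 22.9, 699 and 1127 repeat CPM. Again 24 of 25 ffEPSC cells lay above every ESC cell, and 0.717% of the 558 repeat rows with 100 repeat CPM in a library did so. The library levels were 22.3 (21.5 to 23.1) and 632 (628 to 636) repeat CPM, a fold of 28.4 (27.3 to 29.5). The log2 ratio of 4.77 ranked 2 among those 558 rows, of which 4.66% were at least 2-fold higher in ffEPSCs and 0.358% at least 2-fold lower. HERVH48-int passed that floor through ffEPSCs alone, so its direction among these rows was set by the floor.

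MER48, the LTR row, had a higher floor and a smaller difference. Its ESC cells ran from 9.26 through a median of 25.1 to 91.9 repeat CPM, with reads in all 16. Its ffEPSC cells ran from 39.4 through 188 to 277, and 22 of 25 lay above every ESC cell. The share of all repeat rows that reach 22 cells was not worked out, so this count describes MER48 alone. The library levels were 30.6 (29.6 to 31.5) and 177 (175 to 179) repeat CPM, a fold of 5.79 (5.61 to 5.99) and a log2 ratio of 2.50, rank 10. MER48 too passed the floor through ffEPSCs alone, so its direction among the ranked rows was set by the floor. The cell highest in MER48 among ESCs was B1 of set 1, which had 1.32 repeat CPM of HERVH48-int and 0.340 CPM of ERVH48-1.

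**Figure D1:**
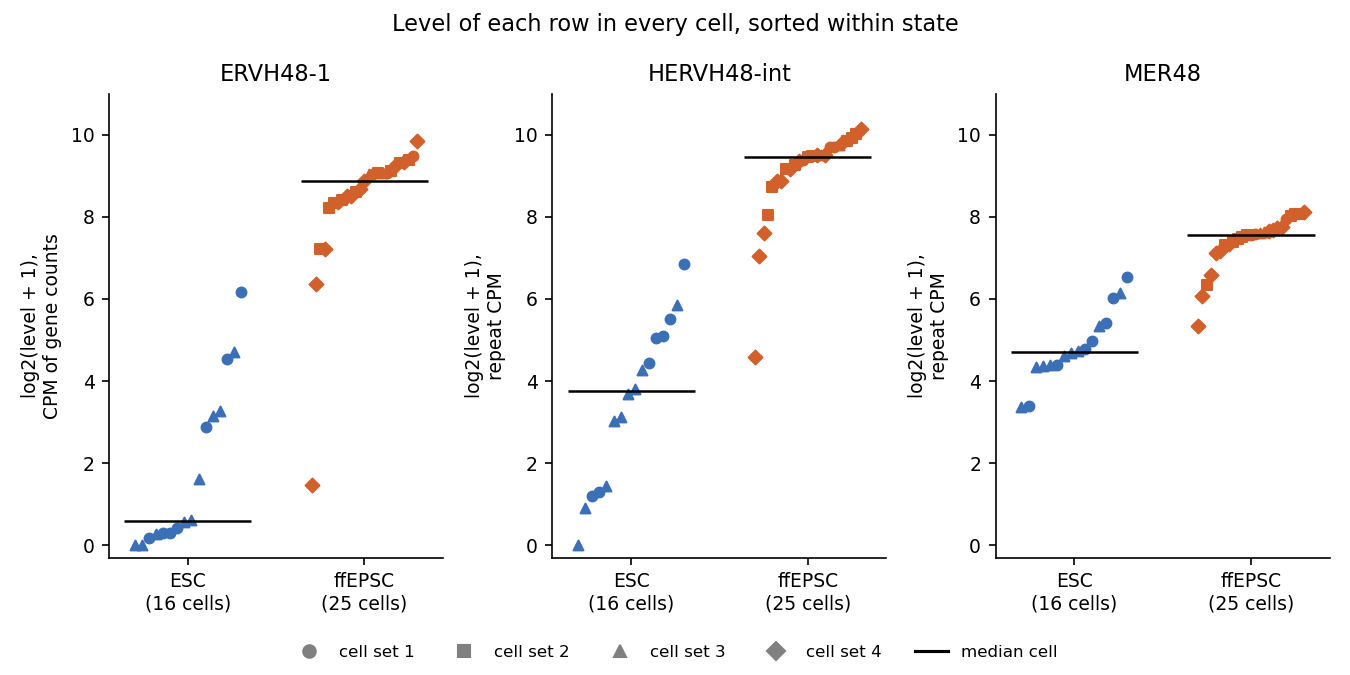
Each point is 1 cell, sorted within its state, with log2 of the level plus 1 on the vertical axis (CPM for ERVH48-1, repeat CPM for HERVH48-int and MER48), the marker giving the cell set and the bar the median cell. All but 1 of the ffEPSC cells lie above every ESC cell for ERVH48-1 and HERVH48-int. For MER48 22 of 25 do, a count whose share over all repeat rows was not worked out.

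Cell names carry a set number from 1 to 4 whose meaning the labels do not give, and sets 1 and 3 hold cells of both states. Within set 1 (7 ESC and 3 ffEPSC cells) the log2 ratios were 5.19 for ERVH48-1, 4.38 for HERVH48-int and 2.45 for MER48. Within set 3 (9 ESC and 2 ffEPSC cells) they were 6.56, 5.76 and 2.84. The order of the 3 rows was thus the same in both sets. Among ffEPSC sets the pooled ERVH48-1 level was 591 CPM in set 1, 435 CPM in set 2, 529 CPM in set 3 and 388 CPM in set 4. The ranges over cells overlapped between each pair of these sets.

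In ffEPSCs the 3 rows varied together from cell to cell. Across the 25 cells the Spearman correlation was 0.903 between ERVH48-1 and HERVH48-int, 0.807 between ERVH48-1 and MER48, and 0.925 between HERVH48-int and MER48. Pearson's r of the log2 levels was 0.974, 0.883 and 0.943 for the same pairs. Without the G5 cell the Spearman correlation was 0.890, 0.782 and 0.915, so the pattern did not rest on that cell. Within set 2 (9 cells) it was 0.867, 0.733 and 0.933, and within set 4 (11 cells) 0.964, 0.891 and 0.964. The gene and repeat tables were counted from the same cells, and a read from the chromosome 21 copy can be counted in both, so the rows are not independent measurements of it. The depth of the cells moved little with ERVH48-1 here: the correlation was -0.06 with gene counts and 0.09 with repeat counts.

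**Figure D2:**
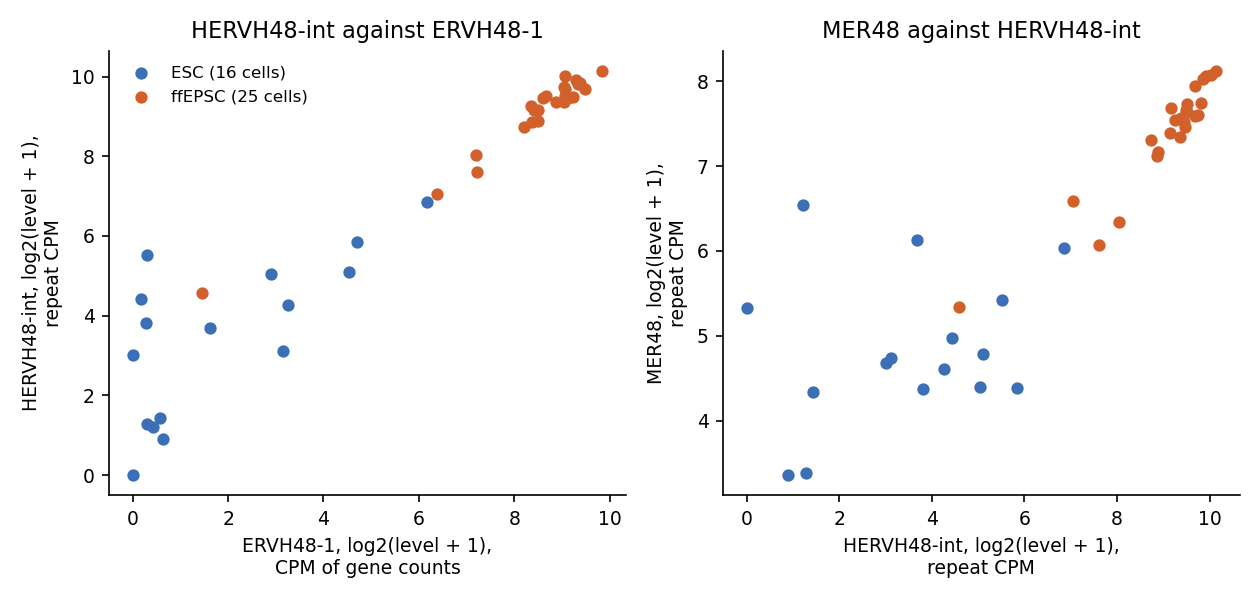
Each point is 1 cell, with log2 of the level plus 1 on both axes, HERVH48-int against ERVH48-1 on the left and MER48 against HERVH48-int on the right. The 25 ffEPSC cells form a line (Spearman correlation 0.903 and 0.925), and the 16 ESC cells scatter more widely (0.546 and 0.21).

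The proportion of HERVH48-int to ERVH48-1 counts was nearly fixed in ffEPSCs. The median cell had 0.674 HERVH48-int counts per ERVH48-1 count, the quartiles were 0.652 and 0.704, and 22 of 25 cells lay between 0.6 and 0.8. The 3 other cells were wells H1 (0.925) and H3 (1.02) of set 2 and G5 of set 4 (8.65, from 225 and 26 counts). In the median ffEPSC cell 98.4% of non-zero gene counts were even numbers, against 49.3% of repeat counts, so the 2 tables may not count the same unit, and the proportion is read only between cells. If gene counts hold both mates of a fragment, their counting intervals are too narrow.

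In ffEPSC cells MER48 varied with HERVH48-int along a line that did not pass through 0. A straight line through the 25 ffEPSC cells had a slope of 0.212 MER48 counts per HERVH48-int count and an intercept of 44.1 repeat CPM. Without G5 the slope was 0.208 and the intercept 47.3. Both intercepts lay above the mean of the ESC cells, 33.4 repeat CPM, and within their wide range of 9.26 to 91.9. The error of the intercepts was not worked out, and what they come from was not tested. In ESCs a line through the 16 cells had an intercept of 29.3.

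In ESCs the rows were less tightly tied. The Spearman correlation was 0.546 between ERVH48-1 and HERVH48-int (Pearson's r of log2 levels 0.69), -0.0029 between ERVH48-1 and MER48 and 0.21 between HERVH48-int and MER48 across 16 cells. For the first pair it was 0.429 within set 1 and 0.695 within set 3, and 0.321 without the 2 cells farthest from the median. Gene counts of the cell had a correlation of -0.33 with ERVH48-1 in ESCs, and their part in these values was not tested. ERVH48-1 was below 1 CPM in 9 of the 16 cells, so much of its ranking rests on few reads. The 4 shallowest ESC cells had 63.5 to 218 CPM of POU5F1, below the 496 to 1310 CPM of the other 12, and the 2 ESC cells highest in MER48, B1 of set 1 and A6 of set 3, were among them. Without these 4 cells the Spearman correlation was 0.67, 0.08 and 0.52 for the 3 pairs. The difference in correlation between the states was not tested.

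Some ESC cells had HERVH48-int reads with hardly any from ERVH48-1. B2 of set 1 had 310 HERVH48-int counts and 4 of ERVH48-1, B3 of set 1 had 204 and 2, C4 of set 3 had 131 and 4, and B5 of set 3 had 77 and 0. These 4 cells, found by a rule of at least 50 HERVH48-int counts and a 10-fold excess chosen after the values were seen, held 25.1% of the library's HERVH48-int counts. C2 of set 1, the ESC cell highest in ERVH48-1, had 743 HERVH48-int and 1230 ERVH48-1 counts. Its proportion of 0.604 lay just under the lowest ffEPSC cell (0.617). The next highest ESC cell, A5 of set 3, had 562 and 408 counts, a proportion of 1.38. Of the 14 ESC cells with an ERVH48-1 read 4 lay between 0.6 and 0.8. None of the 25 ffEPSC cells met the rule, but G5 of set 4, with 225 and 26 counts, came close to it (8.65). The other ffEPSC cells had 1320 ERVH48-1 counts or more, so a 10-fold excess was hardly possible in them. The rule therefore does not compare the states. The deposited repeat rows do not say which copies of the family the reads came from.

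**Figure D3:**
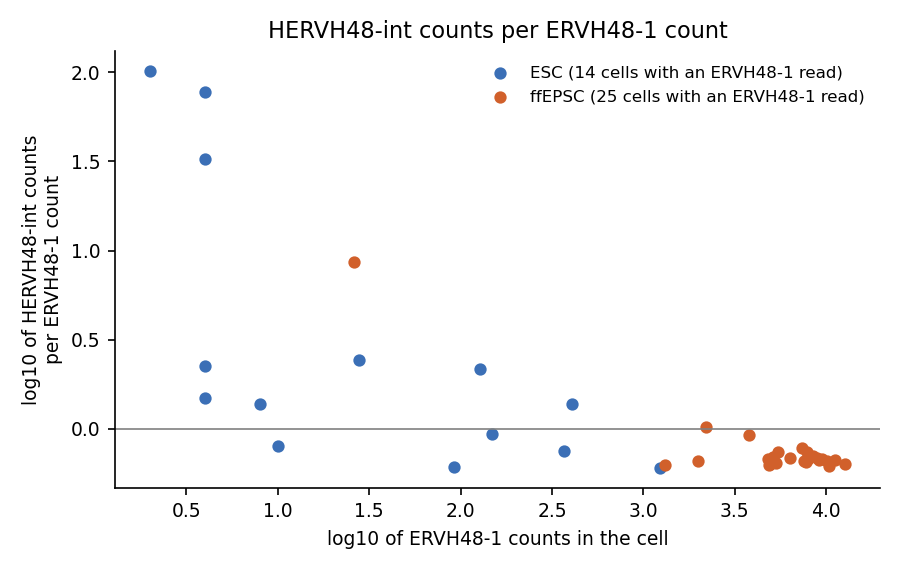
Each point is 1 cell with an ERVH48-1 read, with log10 of its ERVH48-1 counts on the horizontal axis and log10 of HERVH48-int counts per ERVH48-1 count on the vertical axis. The ffEPSC cells have a median of 0.674 HERVH48-int counts per count, with 22 of 25 between 0.6 and 0.8, below the grey line at 1, while 3 ESC cells with 2 to 4 ERVH48-1 counts lie highest.

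Among the repeat rows ranked, the 2 rows of the family were the most like ERVH48-1 in ffEPSC cells. A read from the chromosome 21 copy can be counted in both tables, so these 2 ranks are not independent of the counting. Of 544 repeat rows with 100 repeat CPM in the ffEPSC library, HERVH48-int ranked 1 and MER48 ranked 2 by Spearman correlation across the 25 cells. The next were MER4-int (0.522), MER41B (0.488), MER21A (0.475) and the simple repeat (GAT)n (0.475), and 90% of rows lay between -0.266 and 0.295. MER4-int, MER41B and MER21A are other retroviral rows, and their correlations were 0.167, 0.05 and 0.317 within set 2 and 0.7, 0.545 and 0.655 within set 4. The first 2 ranks were the same within sets 2 and 4, without G5, and over 2970 rows with no floor. Across ESC cells HERVH48-int ranked 2, behind LTR12C (0.578), and MER48 ranked 334.

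**Figure D4:**
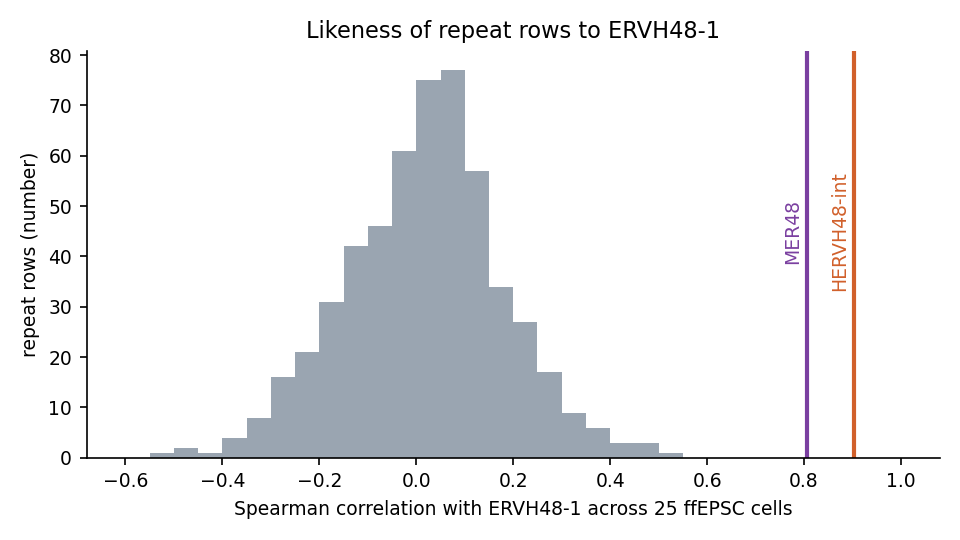
The bars count repeat rows with 100 repeat CPM in the ffEPSC library by Spearman correlation with ERVH48-1 across 25 ffEPSC cells. Rows of the family, which can share reads with ERVH48-1, are left out of the bars and drawn as the vertical lines. MER48 (0.807) and HERVH48-int (0.903) lie to the right of every other row, of which the highest is at 0.522.

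Across all ffEPSC cells genes reached weaker likeness than the rows of the family, which can share reads with ERVH48-1. Among 6152 genes with 20 CPM in the ffEPSC library the highest correlations with ERVH48-1 were those of CXorf38 (0.727), NAGK, a sugar kinase gene (0.681), CORO1B, an actin-binding coronin gene (0.651), OLFML3 (0.637), the zinc finger gene ZNF578 (0.62) and the splicing factor gene IK (0.613). The lowest were the splicing regulator gene SRSF10 (-0.753) and the metallothionein genes MT1X (-0.72) and MT1G (-0.685), whose products bind zinc and copper. The metallothionein genes are near copies of each other, and how the counting split their reads was not given. In ESC cells the same 9 genes had correlations between -0.423 and 0.256. Over all 6152 genes 90% of values across ffEPSC cells lay between -0.358 and 0.349. The order of genes below MER48 did not fully hold within sets. CORO1B (0.817) lay above MER48 (0.733) within set 2, and OLFML3 (0.918) above MER48 (0.891) within set 4. No other named gene did so in these sets, and none lay above HERVH48-int (0.867 and 0.964). OLFML3 was at 0.25 within set 2, ZNF578 at 0.283 and 0.709 within sets 2 and 4, and SRSF10 at -0.85 and -0.645.

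The ffEPSC cell in well G5 of set 4 stood apart in many of these rows. It was the lowest ffEPSC cell in ERVH48-1, HERVH48-int (22.9 repeat CPM) and MER48 (39.4 repeat CPM). It was also the lowest in HERVH-int, LTR7 and HERV17-int, and in POU5F1, the OCT4 gene, at 518 CPM against 837 CPM in the next cell. Other pluripotency markers did not all go the same way. NANOG was at 108 CPM in it, rank 2 from the lowest, while SOX2 was at 44.2 CPM, above the ffEPSC median of 39.2 CPM. PCAT14, a transcript of a HERVK copy, had 0 reads in it, against a median of 151 CPM and 0.738 CPM in the next cell. It was the highest in MT1X (378 CPM, median 63.2) and MT1G (1844 CPM, median 233). MX2, at 31.1 to 209 CPM in ESC cells, had 0 reads in it, as in the median ffEPSC cell. It was not shallow, with 14881256 gene counts and 12494 genes with a read. Its 9825753 repeat counts were the most of any ffEPSC cell. Repeat CPM are scaled to that total, and its part in the low repeat levels of this cell was not tested. Over 7009 genes its log2 levels had an r of 0.7998 with the mean of the other ffEPSC cells and 0.7903 with the ESC mean. The other 24 ffEPSC cells had 0.754 to 0.9296 with their own state and 0.645 to 0.833 with ESCs, and each was nearer its own state. These rows were picked after their values were seen.

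The genes listed around suppressyn, its receptor and the syncytins were not all read. SLC1A5, which encodes ASCT2, the receptor of suppressyn and syncytin-1, was read in all cells. Summed over ESC cells it stood at 234 CPM and over ffEPSC cells at 324 CPM, a log2 ratio of 0.47. The 4 shallowest ESC cells had 1.19 to 125 CPM of SLC1A5, and the other 12 had 145 to 629 CPM with a median of 244 CPM. Their part in the ratio was not tested. Across ffEPSC cells its correlation with ERVH48-1 was 0.162, and across ESC cells -0.13. SLC1A4, a related transporter gene, was at 0.897 and 3.14 CPM, under the floor of 5 CPM. No ESC cell had a read of ERVW-1, which encodes syncytin-1 (limit 0.0113 CPM). Reads of it came from 3 of 25 ffEPSC cells and made 0.497 CPM. MFSD2A, the receptor gene of syncytin-2, was at 30.9 and 3.66 CPM (-2.77). ERVFRD-1, the syncytin-2 gene, and GCM1, a trophoblast transcription factor gene, are not analysed here. Of the 6 genes of this list 4 were listed and 2 reached the floor, 0 higher and 1 lower by 2-fold or more (8.3% and 5.84% over all genes). The lower gene was MFSD2A, which passed the floor through ESCs alone, so its direction was set by the floor.

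The other genes whose symbols begin with ERV, where they passed the floor, differed less between the libraries than ERVH48-1. Of 7 listed, 3 reached 5 CPM in a library. ERVK13-1 was at 2.01 and 5.40 CPM (log2 ratio 1.09), ERVK3-1 at 14.4 and 9.90 CPM (-0.50), and ERVMER34-1, which encodes the envelope protein HEMO, at 16.6 and 7.77 CPM (-1.003). ERVK13-1 passed the floor through ffEPSCs alone, so its direction was set by the floor. ERV3-1, ERVH-1, ERVK-28 and ERVW-1 stayed under the floor in both libraries. PCAT14 was at 2.17 and 134 CPM, beside 9.18 and 441 CPM for ERVH48-1, so a difference of this size was not particular to ERVH48-1. Across ffEPSC cells the correlation of PCAT14 with ERVH48-1 was 0.328. The repeat rows HERVK-int, at 761 and 12977 repeat CPM, and LTR5-Hs, at 287 and 10430, also differed widely.

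The HERVH family, named alike but far more abundant, was at similar levels in both libraries. HERVH-int was at 42896 and 46099 repeat CPM (log2 ratio 0.10) and its LTR row LTR7 at 9725 and 9690 repeat CPM (-0.01). LTR7B (0.13) and LTR7Y (0.60) also stayed within 2-fold. LTR7C was under the floor of 100 repeat CPM in both libraries, and LTR7A was not listed. HERVH-int and LTR7 varied together in both states, with a correlation of 0.744 across ESC cells and 0.748 across ffEPSC cells. Their correlations with ERVH48-1 across ffEPSC cells were 0.347 and 0.315.

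Retroviral rows related to HERVH48 or linked to placental genes were mostly within 2-fold. Of 12 rows in the first group 11 were listed and 3 reached 100 repeat CPM: LTR21A (616 and 307 repeat CPM, log2 ratio -1.003), HERV-Fc2-int (-0.30) and LTR2 (0.44). Of 11 in the second group 5 did. HERV17-int, the family of syncytin-1, was at 148 and 465 repeat CPM (1.64), its LTR row LTR17 at 531 and 895 repeat CPM (0.75), MER50, the LTR family of syncytin-2, at 0.52, MER41B at 0.40 and MER21A at 0.23. Under the floor, HERVFH21-int, named after its values were seen, was at 26.8 and 43.4 repeat CPM, with a correlation of 0.538 with ERVH48-1 across ffEPSC cells. Among these 8 rows HERV17-int was past 2-fold higher and LTR21A past 2-fold lower, as were 4.66% and 0.358% of the 558 repeat rows. For HERV17-int 11 of 25 ffEPSC cells lay above every ESC cell, and the share of all repeat rows that reach 11 was not worked out. The correlation of HERV17-int with ERVH48-1 across ffEPSC cells was 0.298.

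The genes nearest to ERVH48-1 on chromosome 21 differed far less between the libraries. The nearest, NDUFV3, a gene of respiratory complex I, ends 3499 bases from it in GENCODE 29 and was at 107 and 75.3 CPM (log2 ratio -0.50). WDR4, a tRNA methylation gene 37.2 kb away, was at 21.7 and 33.0 CPM (0.58), and the homeobox gene PKNOX1, 48.9 kb away on the other side, at 45.3 and 41.5 CPM (-0.12). Of 29 genes listed for the region 22 were in the tables and 14 reached 5 CPM. A 2-fold higher level was found for 2 of these 14 (8.3% of all genes) and a 2-fold lower one for 1 (5.84%). Their median log2 ratio was -0.18, against 0.04 over 10825 genes, and it was -0.405 within set 1 and 0.04 within set 3.

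The higher neighbours lay farthest away. They were DNMT3L, a cofactor of the de novo DNA methyltransferases 1321 kb away (0.219 and 261 CPM, 7.75), and the glycolysis gene PFKL 1374 kb away (78.6 and 166 CPM, 1.07). DNMT3L passed the floor through ffEPSCs alone, so its direction was set by the floor. The lower gene was PDE9A, a cyclic GMP phosphodiesterase gene (19.6 and 6.96 CPM, -1.37). SLC37A1 (0.44), CBS (-0.14), U2AF1 (-0.23), RRP1B (-0.38), PDXK (-0.03), CSTB (-0.52), RRP1 (-0.38) and TRAPPC10 (-0.45) stayed within 2-fold. CBS and U2AF1 have near-identical copies in this build, so their levels are uncertain. Across ffEPSC cells the correlation of the 14 with ERVH48-1 ran from -0.266 (TRAPPC10) to 0.475 (PFKL), and it was 0.26 for DNMT3L and -0.08 for NDUFV3.

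**Figure D5:**
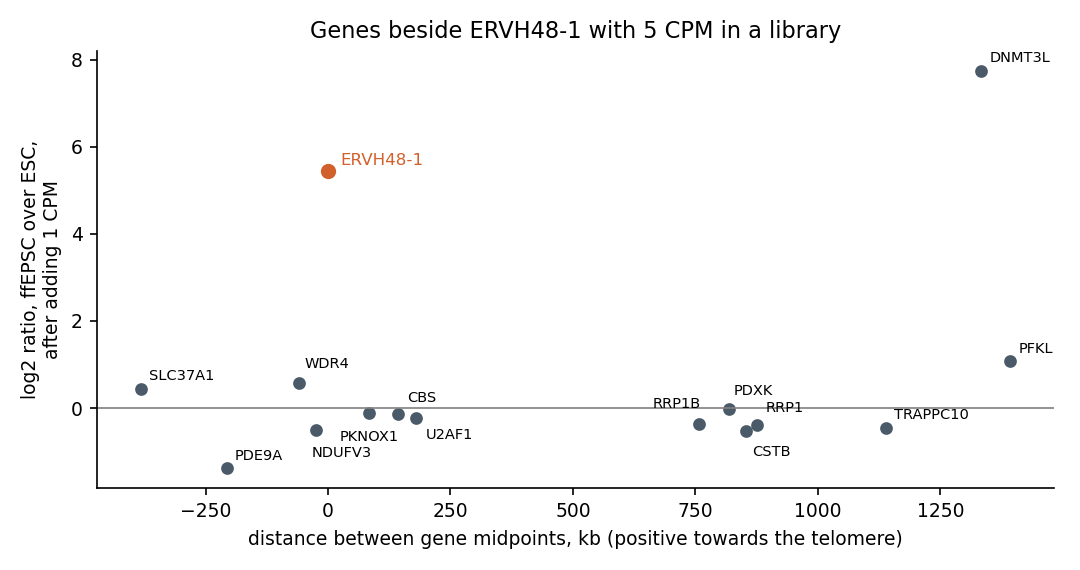
Each point is a gene of the list around ERVH48-1 with 5 CPM in a library, placed by the distance between gene midpoints in kb, with the log2 ratio of ffEPSC over ESC on the vertical axis. ERVH48-1 (5.44) stands above the genes on either side, and DNMT3L (7.75) lies 1333 kb away.

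The libraries were read against the cell types they are labelled with. All 8 markers of pluripotency were listed and read in both libraries, and each was within 2-fold. The levels were 892 and 1061 CPM for POU5F1, 33.9 and 44.9 CPM for SOX2, and 132 and 175 CPM for NANOG. The log2 ratios of the others were 0.36 for LIN28A, -0.41 for L1TD1, 0.15 for TDGF1, 0.27 for SALL4 and -0.09 for DPPA4. Because suppressyn is known from trophoblast, 20 trophoblast markers were looked up, and 8 were listed. GATA2, GATA3 and CCR7 had 0 reads in ESCs and 1.01, 0.695 and 1.46 CPM in ffEPSCs, and CDX2, TP63, ELF5, VGLL1 and CGA were among the 12 not listed. Of 4 that reached the floor, KRT8 (578 and 1569.6 CPM, 1.44) and TFAP2C (7.75 and 85.7 CPM, 3.31) were at least 2-fold higher, KRT18 (661 and 1225 CPM, 0.89) was within 2-fold and KRT7 (6.93 and 1.63 CPM, -1.60) was lower, with 8.3% and 5.84% of all genes that much higher and lower. KRT7 passed the floor through ESCs alone, so its direction was set by the floor. KRT8 and KRT18, which are also read in pluripotent cells, made up most of the summed level. The summed level of the 8 ran from 317 to 2091 CPM in ESC cells and from 928 to 6014 CPM in ffEPSC cells. Its correlation with ERVH48-1 was 0.165 across ESC cells and 0.318 across ffEPSC cells, and its part in the ERVH48-1 level was not tested. Of 5 fibroblast markers 2 were listed, with sums of 0 to 89.1 CPM in ESC cells and 0 to 70.1 CPM in ffEPSC cells. Mesoderm and endoderm markers summed to 0 to 3.95 CPM in ESC cells and 0 to 45.3 CPM in ffEPSC cells, and neuroectoderm markers to 23.3 to 190.2 and 4.397 to 77.9 CPM. Of 9 genes known from naive pluripotency 8 were listed. The 7 that reached the floor were under it in ESCs and passed through their ffEPSC level, so their direction was set by the floor and no count is given. The summed level of the 8 listed ran from 0 to 45.5 CPM in ESC cells and from 32.7 CPM, in the G5 cell, to 1309 CPM in ffEPSC cells. Its correlation with ERVH48-1 across ffEPSC cells was 0.288, and single genes ranged from -0.201 (DPPA5) to 0.62 (SUSD2), while among pluripotency markers NANOG was at 0.556, and these 3 were named after their values were seen.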

How the data were processed

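Smart-seq2 libraries of single H9 cells in 2 states were deposited as whole-number counts per gene and per repeat name, 1 column per cell, without normalization by the authors, per the labels and the values. Tools listed in the submitters' processing notes, with no roles, are featureCounts, Subread 2.0.6, SAMtools 1.6, HISAT2 2.2.1 and bcl2fastq, and the builds are GRCh38 and T2T-CHM13. The labels also give an extraction kit for total RNA. Annotation, repeat library, strand and the treatment of reads with many places to map, on which repeat rows depend most, were not given in the sources used here. Cells held 11714517 to 19965639 gene counts and 4560140 to 11088400 repeat counts, no cell was left out, and the libraries shared 0 cell names. Doublets were not called.

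Levels (CPM, repeat CPM) were scaled to the total of the cell's or library's own table. The ribosomal RNA row SSU-rRNA-Hsa alone made up 512156 repeat CPM in ESCs and 440582 in ffEPSCs. Every repeat CPM therefore depends on how much ribosomal RNA was read. Each log2 ratio sets the ffEPSC level plus 1 against the ESC level plus 1. Intervals (95%) are exact Poisson for levels and exact conditional binomial for folds, and cover counting error alone, because amplified reads without molecular barcodes do not count molecules. Correlations across cells describe 1 library each and carry no p-value. Floors were 5 CPM for genes, 100 repeat CPM for repeats and, for likeness, 20 CPM with reads in 50% of ffEPSC cells, leaving out ribosomal protein genes and pseudogenes. Named were genes and repeats past their floor from the lists on suppressyn and syncytin genes, retroviral genes, chromosome 21 neighbours and retroviral repeats. Pluripotency markers and the listed trophoblast markers (up to 4 were planned) were named too. So were the 6 repeats and 6 genes most like ERVH48-1 and the 3 genes least like it. Lists and members were chosen with earlier results of these data known. GENCODE 29 gave coordinates and the transcript, RefSeq the second gene type. Ends of the transcript were aligned locally over 200 bases. Ratios and likeness ranks were tested on simulated data. Python 3.11.15, numpy 2.4.6, scipy 1.17.1, pandas 2.3.3 and Biopython 1.88 were used.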

Additional observations from a re-analysis of the deposited data

How the results depend on the processing

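The ratios of the 3 rows kept their direction under each alternative run, and their size moved. The log2 ratios of ERVH48-1, HERVH48-int and MER48 were 4.56, 4.31 and 2.21 with a pseudocount of 10, and 8.27, 5.70 and 2.86 for median cells. They were 5.23, 4.60 and 2.72 without the 4 shallowest ESC cells, 5.54, 4.68 and 2.44 when scaled by the other table's total, and 6.24, 5.11 and 2.60 without the highest ESC cell, an alternative chosen after seeing the data. With a pseudocount of 0.1 the first 2 were 5.57 and 4.82, and without the highest ffEPSC cell ERVH48-1 was at 5.38. Median-ratio scaling gave 4.64 for HERVH48-int and 2.37 for MER48, and the mean over cells 2.40 for MER48. Within set 1 the ratios of the first 2 were 5.19 and 4.38, and within set 3 all 3 were at 6.56, 5.76 and 2.84. The 3 correlations across ffEPSC cells moved by less than 0.1 under all 21 alternatives, thinning to 11714517 gene and 4560140 repeat counts included. Those across ESC cells did not hold as well. ERVH48-1 with HERVH48-int was at 0.32 without the 2 cells farthest from the median, 0.69 by Pearson's r, 0.43 and 0.69 within sets 1 and 3 and 0.67 without the 4 shallowest cells. ERVH48-1 with MER48 was at -0.12 without the 2 farthest cells, and changed sign to 0.14 by Pearson's r and 0.11 within set 1. HERVH48-int with MER48 was at 0.0167 within set 3 and 0.52 without the 4 shallowest cells. The causes were not tested. Ranks among repeats changed only across ESC cells, to 2 for HERVH48-int and 334 for MER48, and neither row reaches the planned floor of 1000 repeat CPM, so no rank exists there. The neighbours' median was -0.405 within set 1, -0.30 without the 4 shallowest ESC cells, and changed sign to 0.0394 within set 3. No paired analysis was possible because each state is 1 sample.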
